A study of Cucumis sativus var. sativus with 11 samples.

Results

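Ovaries that received no pollen for 1 day were compared with ovaries taken on the day the flower opened (anthesis). All were single ovaries of cucumber (Cucumis sativus) from Elem Female, a gynoecious line, meaning one that bears female flowers, which is also non-parthenocarpic, so that its fruits do not set without pollination. The 6 libraries chosen by their labels were 3 unpollinated ovaries at 1 day after anthesis and 3 ovaries at anthesis, of 11 libraries in all. The other 5 were 3 pollinated ovaries and 2 inhibited ovaries, both taken 1 day after anthesis; inhibited ovaries were pollinated on plants that carried older fruits. Plants grew in a net house and ovaries were collected in the early morning, per the labels. The labels do not say which plant each ovary grew on, so the p-values cover the spread between ovaries, which may be narrower than that between plants. Each library covers ovary tissue of many cell types, in which fewer cells of a type and less RNA per cell cannot be told apart.

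A cucumber ovary nearly stops growing when its flower opens. Pollination and fertilisation restart cell division and then cell expansion, a step called fruit set, in which the hormones auxin, gibberellin and cytokinin take part. Without pollen the ovary of a non-parthenocarpic line stays small, and it later yellows and withers. In this comparison the passing of a day and the lack of pollen cannot be told apart; pollinated ovaries of the same age are therefore set beside it where a gene is described.

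The files give no names beside the gene identifiers, and none of them could be taken from RefSeq: 0 of 23248 were found in its table of 23999 genes of the assembly Cucumber_9930_V3. Genes are therefore given by identifier, what each encodes is not stated, and the labelled tissue could not be set against marker genes. Levels are CPM, read counts scaled to a common library size. Genes whose Benjamini-Hochberg adjusted p lay under 0.05 in edgeR's quasi-likelihood test were called, and a log2 fold change is unpollinated minus anthesis unless another pair is named. Gene reads numbered 21619945 to 24361340 in unpollinated libraries and 25508373 to 25589144 in anthesis libraries. Unpollinated replicate 3 stood apart: 16.8% of its reads were assigned to no gene, against 12.8 and 10.9% in unpollinated replicates 1 and 2 and 10.8 to 13.3% at anthesis. The libraries also differed in their second index sequence, a label added at library preparation. All anthesis libraries and unpollinated replicate 1 carried 1 form, and unpollinated replicates 2 and 3 carried the other. Anthesis replicate 3 was sequenced on lane 2 and the other 5 libraries on lane 3.

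Over the first day without pollen, 3295 genes rose and 3377 fell, 17.6% and 18.1% of the 18679 genes tested. Together 35.7% of genes were called. The 3 unpollinated libraries all lay above the 3 anthesis libraries for 4750 genes and all below them for 4839 genes, 25.4% and 25.9% of genes tested. Among called genes the libraries lay apart in this way for 3227 of the 3295 higher and 3308 of the 3377 lower. Most changes were small: 4166 of the called genes, 62.4%, changed by less than 1.5-fold. The rest, 2506 genes, changed 1.5-fold or more. At 2-fold or more, 392 genes rose and 431 fell, 2.1% and 2.31% of genes tested. At 4-fold or more, 87 rose and 90 fell, and at 8-fold or more 16 rose and 20 fell. For 7912 genes, 42.4% of those tested, the 95% interval of the log2 fold change lay wholly within 0.5 of 0, which bounds any change of these genes at this depth. Some called genes with small changes are among them. Over all genes tested, the median log2 fold change was -0.007. The TMM scaling places this centre near 0, so both directions are relative to the bulk of genes and a shift of all genes together could not be seen.

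**Figure D1:**
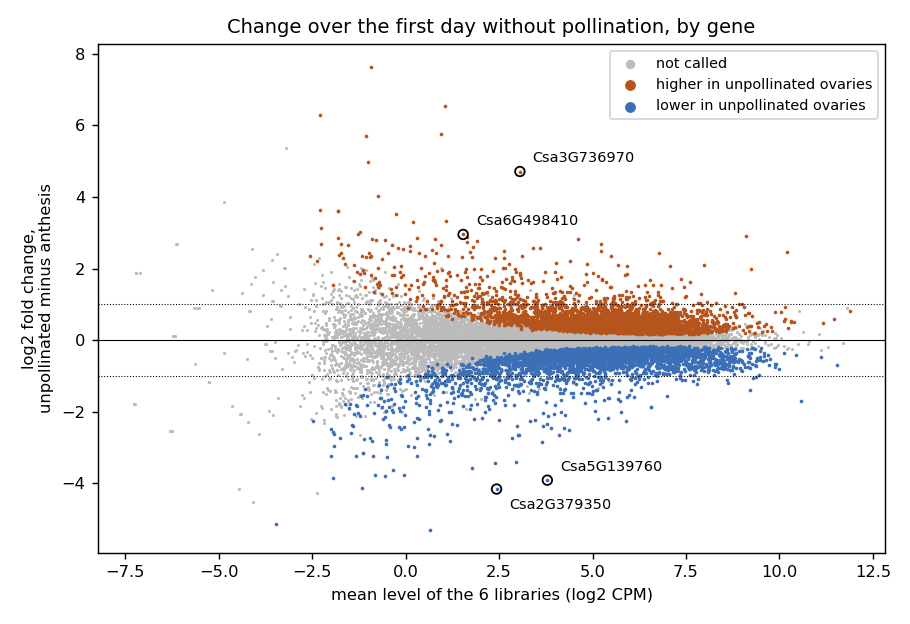
Each point is 1 of the genes tested, with its mean level over the 6 libraries (log2 CPM) on the horizontal axis and its log2 fold change, unpollinated minus anthesis, on the vertical axis. Orange points were called higher (3295 genes), blue points lower (3377 genes), dotted lines mark 2-fold, and the 4 circled genes are described in the text.

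The second index sequence could be weighed only through unpollinated replicate 1. All pollinated libraries carried the form of the anthesis libraries, and both inhibited libraries the other. With the index as a term in the 11-library fit, unpollinated replicate 1 alone is therefore compared with anthesis or pollinated ovaries. Among libraries that carried the form of the anthesis libraries, it is also the only unpollinated library. These 2 fits are thus not separate checks. Both called far fewer genes, but calls from 1 ovary cannot be set beside those from all 3. Within lane 3, that is without anthesis replicate 3, 4796 genes were called, and without unpollinated replicate 3 the number was 5200. In all, 4018 genes, 21.5% of those tested, were called in the 11-library fit and in each of the 6 fits that left out 1 of these libraries. The 392 genes had a median log2 fold change of 1.42 in the 11-library fit; among libraries with the index of the anthesis libraries the 386 of them that passed the filter there had a median of 1.29. The 431 lower genes had medians of -1.39 and -1.09. Both sets were chosen with unpollinated replicate 1 and these anthesis libraries among the libraries used, which favours like medians. The part of the index in these calls was not tested. Inhibited and anthesis libraries carried different forms throughout, so treatment and index cannot be told apart in that comparison.

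Whether a gene was called, and by how much it changed, went with its level. When genes were divided into quartiles by their mean level over all 11 libraries, 50.7% of the highest quartile (59.9 CPM and above) were called, with 1209 genes higher and 1159 lower. Their median log2 change, taken without sign, was 0.40. In the lowest quartile (up to 6.06 CPM) 16.5% were called, 348 higher and 423 lower, and their median change was 1.13. Changes of 2-fold or more were therefore mostly found among genes of low level: 204 of the 392 higher genes and 252 of the 431 lower genes belonged to the lowest quartile, against 51 and 34 in the highest. Low counts need a larger change to pass the test, which favours this relation.

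**Figure D2:**
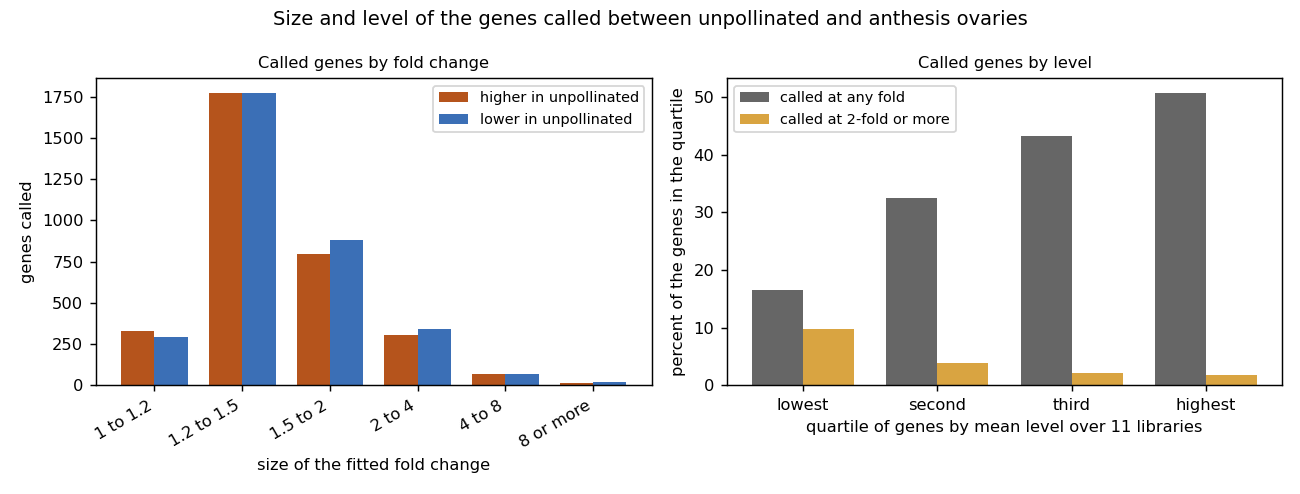
Left, the number of called genes in each range of fitted fold change, with genes higher in unpollinated ovaries in orange and lower ones in blue; right, the percent of genes called in each quartile of level, at any fold (grey) and at 2-fold or more (yellow). Most called genes changed by less than 1.5-fold, and calls at any fold became more frequent with level while calls at 2-fold or more became rarer.

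The sum of the changes was spread over many genes. Genes with a higher mean in unpollinated ovaries gained 110210 CPM in all, and genes with a lower mean lost 111220 CPM, or 11.02 and 11.12% of all CPM. The 514 genes with the largest gains held 50% of the gain, and the 433 with the largest losses 50% of the loss. Called genes held 76.7% of the gain and 80.7% of the loss, but genes changed 2-fold or more held 11.5% and 8.48%.

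The abundant genes described next were chosen after their values were seen. Among called genes Csa4G167980 gained the most CPM. It stood at 4455, 4778 and 5104 CPM in unpollinated replicates 1 to 3, against 2986, 2612 and 2565 CPM in anthesis replicates 1 to 3. All 3 unpollinated libraries lay above all anthesis libraries, and the log2 fold change was 0.81 ± 0.15 SE (adjusted p = 0.0012, edgeR). With the index as a term, from unpollinated replicate 1 alone, it was 0.71. It was 0.72 among libraries with the index of the anthesis libraries, and these fits differed on the call of this gene. Pollinated ovaries averaged 6129 ± 789 CPM (SD, n = 3) and inhibited ovaries 4229 ± 862 CPM (SD, n = 2), and both were called higher than anthesis (adjusted p = 0.000606 and 0.0345, edgeR). Its difference between unpollinated and pollinated ovaries was not called (log2 fold change -0.36; adjusted p = 0.0784, edgeR). Csa4G295440 lost the most CPM of the called genes. It had 990, 634 and 553 CPM in unpollinated replicates 1 to 3, against 2290, 2031 and 2720 CPM in anthesis replicates 1 to 3. The groups did not overlap, and the log2 fold change was -1.69 ± 0.21 SE (adjusted p = 0.000203, edgeR). Pollinated ovaries lay between, at 1525 ± 324 CPM (SD, n = 3), and unpollinated ovaries were below them as well (log2 fold change, unpollinated minus pollinated, -1.07, edgeR adjusted p = 0.00267).

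The largest gain in mean CPM of any gene belonged to Csa4G243390, which was not called (log2 fold change 0.89 ± 0.94 SE; adjusted p = 0.492, edgeR). It was at 10457 CPM in unpollinated replicate 3, but 2844.5 and 750 CPM in replicates 1 and 2, against 973 to 4377 CPM at anthesis. Over the whole series it lay at 10457 to 26531 CPM in the 4 libraries with 16.8 to 24.8% of reads assigned to no gene and at 750 to 4377 CPM in the 7 libraries with 10.8 to 13.3%. Csa6G239680 showed the same division, with 3962 to 8986 CPM in those 4 libraries and 345 to 1929 CPM in the other 7, and was not called (edgeR adjusted p = 0.515). With unpollinated replicate 3 left out, these 2 genes had log2 fold changes of -0.49 and -0.33, the opposite sign.

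Genes with large changes were named by a rule that asked for a call in all 7 fits and groups that do not overlap. It also asked for at least 5 CPM in the higher group and the same sign with the index as a term. Csa3G736970 rose most of the genes that met this rule. This gene stood at 6.42, 30.3 and 11.4 CPM in unpollinated replicates 1 to 3, against 0.581, 0.843 and 0.395 CPM in anthesis replicates 1 to 3. The rule required that the groups not overlap, and unpollinated replicate 2 had several times the level of unpollinated replicate 1. The fitted difference was 26.2-fold (log2 fold change 4.71 ± 0.57 SE; adjusted p = 0.000191, edgeR). Without unpollinated replicate 2 the log2 fold change was 3.86 (adjusted p = 0.000843, edgeR), in a fit where the rule required a call. In pollinated ovaries the gene was at 0.107, 0.289 and 0.0385 CPM, from 2, 7 and 1 reads, and in inhibited ovaries at 8.73 and 5.25 CPM. Inhibited ovaries were called higher than anthesis as well (log2 fold change 3.52 ± 0.61 SE; adjusted p = 0.00822, edgeR), whereas pollinated ovaries were not called against anthesis (-2.02 ± 0.97 SE; adjusted p = 0.166, edgeR). Unpollinated minus pollinated, its log2 fold change was 6.74 ± 0.72 SE (adjusted p = 6.7e-05, edgeR), where 30.3% of all genes were called; it was 5.89 without unpollinated replicate 2 and 7.78 without pollinated replicate 2, called in both. With the index as a term, where unpollinated replicate 1 alone sets the value, its log2 fold change since anthesis was 3.39.

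Csa6G498410 was the other gene that rose. It stood at 2.52, 7.69 and 5.22 CPM in unpollinated replicates 1 to 3, against 0.581, 0.613 and 0.791 CPM in anthesis replicates 1 to 3. The lowest unpollinated ovary, replicate 1, shares its index form with anthesis. The gene was 7.75-fold higher (log2 fold change 2.95 ± 0.48 SE, adjusted p = 0.000668, edgeR). With the index as a term, which rests on unpollinated replicate 1, the log2 fold change was 1.92. Among libraries with the index of the anthesis libraries, where the same 1 unpollinated library remains, it was 1.93, and these fits differed on the call. The gene was at 1.19 ± 0.72 CPM in pollinated ovaries (SD, n = 3) and at 1.25 and 1.92 CPM in the inhibited ones. Neither was called against anthesis (adjusted p = 0.265 and 0.175, edgeR), in comparisons that called 16.4% and 7.37% of all genes. At 1 day, unpollinated ovaries exceeded pollinated ones by a log2 fold change of 2.10 ± 0.45 SE (adjusted p = 0.00474, edgeR). This difference was 2.70 and called without pollinated replicate 3. With the index as a term, from unpollinated replicate 1 alone, it was 1.07 and not called.

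Csa2G379350 fell most of the genes that met the rule. It had 1.19, 0.285 and 0.261 CPM in unpollinated replicates 1 to 3, from 26, 7 and 6 reads, against 10.04, 8.59 and 12.02 CPM in anthesis replicates 1 to 3. The unpollinated ovaries were all low, replicate 1 the least so. It was 17.9-fold lower without pollen (log2 fold change -4.16 ± 0.37 SE, adjusted p = 7.02e-05, edgeR). Over the 15 alternatives its log2 fold change lay between -5.20 (without unpollinated replicate 1) and -3.08 (with it as the only unpollinated library). The gene was called in each, as the rule required for the 6 that left out 1 unpollinated or anthesis library. In ovaries that had received pollen the gene was not called against anthesis, with levels near or above those of anthesis ovaries: pollinated ovaries had 10.7, 15.3 and 12.02 CPM (log2 fold change to anthesis 0.32 ± 0.27 SE; adjusted p = 0.443, edgeR) and inhibited ovaries 15.3 and 12.5 CPM (0.45 ± 0.30 SE; adjusted p = 0.361, edgeR).

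Csa5G139760 was the other gene that fell. It stood at 2.89, 2.20 and 0.0871 CPM in unpollinated replicates 1 to 3, the last from 2 reads, against 12.4, 42.1 and 23.4 CPM in anthesis replicates 1 to 3. Both groups were wide, and the rule required that they not overlap. The log2 fold change was -3.91 ± 0.65 SE (adjusted p = 0.000795, edgeR). With the index as a term, from unpollinated replicate 1 alone, it was -3.16. It was also -3.16 among libraries with the index of the anthesis libraries, and these fits differed on the call of this gene. It also fell with pollination, to 0.590, 0.207 and 0.347 CPM in pollinated ovaries (log2 fold change to anthesis -6.13 ± 0.80 SE; adjusted p = 0.000854, edgeR), and was at 2.10 and 0.452 CPM in inhibited ovaries (-4.25 ± 0.80 SE; adjusted p = 0.0127, edgeR). The difference between unpollinated and pollinated ovaries was not called (log2 fold change 2.21 ± 0.94 SE; adjusted p = 0.0934, edgeR); without unpollinated replicate 3, the library closest to pollinated ovaries on this gene, it was 2.78 and called (edgeR adjusted p = 0.014).

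**Figure D3:**
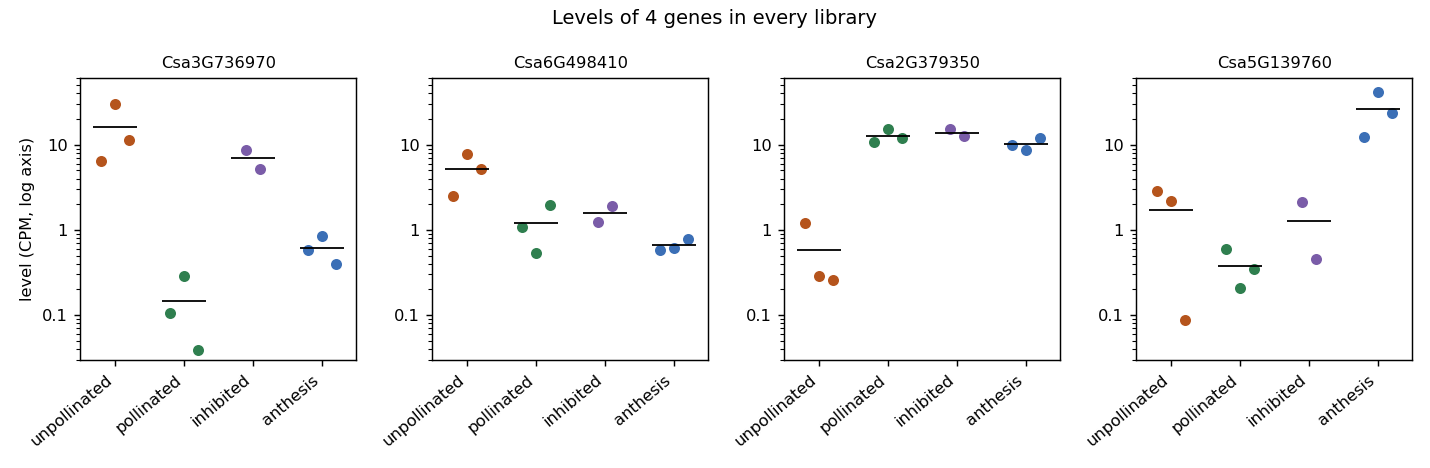
Level of 4 genes (CPM, log axis) in each library, by group, with 1 point per ovary and a line at the group mean. Csa3G736970 and Csa6G498410 were higher in every unpollinated ovary than in every anthesis ovary, and Csa2G379350 and Csa5G139760 lower, as the naming rule required. Csa2G379350 lay at 10.7 to 15.3 CPM in pollinated ovaries, above every unpollinated ovary.

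Some genes had reads in 1 of the groups and none in the other. No read of 448 genes was found in the 3 anthesis libraries although unpollinated ovaries had at least 1, and the converse held for 509 genes. Nearly all of these had very few reads, with more than 10 reads in the group that had any for 10 and 11 of them. The exception, chosen after its values were seen, was Csa1G568500, with 18, 26 and 29 reads in unpollinated replicates 1 to 3 (0.826, 1.06 and 1.26 CPM) and 0 in each anthesis library. Against the limit that 3 reads over the anthesis group would set, 0.0389 CPM, this was at least 27.1-fold higher (adjusted p = 0.00478, edgeR). It had 2, 0 and 0 reads in pollinated replicates 1 to 3 and 4 and 46 reads in inhibited replicates 1 and 2, and the inhibited ovaries thus differed widely. Among the genes called at 2-fold or more, 2 of the 392 and 1 of the 431 had no read in the lower group.

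The genes that changed 2-fold or more were followed through each ovary, as a description of genes chosen in these libraries. The 392 higher genes had a median level of 9.33 CPM in unpollinated and 3.26 CPM in anthesis ovaries. Their median log2 differences from the anthesis mean were 1.26, 1.44 and 1.43 in unpollinated replicates 1 to 3, and -0.02, 0.19 and -0.16 in anthesis replicates 1 to 3. The genes were chosen for being high in these same ovaries, which favours like medians. The 431 lower genes had a median level of 2.33 CPM in unpollinated and 6.67 CPM in anthesis ovaries. Their medians were -1.04, -1.38 and -1.61 in unpollinated replicates 1 to 3, and -0.10, 0.06 and 0.04 in anthesis replicates 1 to 3. Replicate 3 was the lowest of the unpollinated libraries for 233 of the 431 genes, replicate 2 for 144 and replicate 1 for 54. The median SD of log2 CPM among unpollinated ovaries was 0.45 for the 431 genes and 0.24 for the 392, against 0.29 and 0.30 among anthesis ovaries. Over all genes tested it was 0.12 in both groups, so both sets spread more than that in either group, and each set spread more in the group where its level was lower. Sets picked for size of change also hold more low-level genes, whose SD is larger.

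When the genes were chosen anew without an ovary, that ovary still lay on the same side. The same anthesis libraries served for the choice and as the baseline, which favours this outcome. Genes at least 2-fold higher without unpollinated replicates 1, 2 or 3 had medians of 1.12, 1.46 and 1.32 in the ovary left out. For genes at least 2-fold lower these were -0.79, -1.29 and -1.38. Replicate 1, the only unpollinated library with the index of the anthesis libraries, moved least in both directions.

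The same genes in ovaries that had received pollen lay nearer to anthesis on the median, as the choice of genes favours. The 392 higher genes had medians of 0.70, 0.13 and 0.24 in pollinated replicates 1 to 3, all above the anthesis mean. In inhibited replicates 1 and 2 these were 0.48 and 0.53. The 431 lower genes had medians of -0.77, -0.67 and -0.61 in pollinated replicates 1 to 3 and of -0.66 and -0.67 in inhibited replicates 1 and 2. Their range was wide in pollinated ovaries, with lower quartiles of -1.92, -1.96 and -1.87 and upper quartiles of -0.36, -0.17 and -0.11. In unpollinated replicates 1 to 3 the lower quartiles were -1.42, -1.81 and -2.34 and the upper quartiles -0.83, -1.15 and -1.19. This span was narrower than in any pollinated library, which is favoured because the genes were cut at 2-fold in these unpollinated ovaries. The lower genes therefore comprised some that were far lower with pollen as well, such as Csa5G139760, and some near their anthesis level with pollen, such as Csa2G379350.

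**Figure D4:**
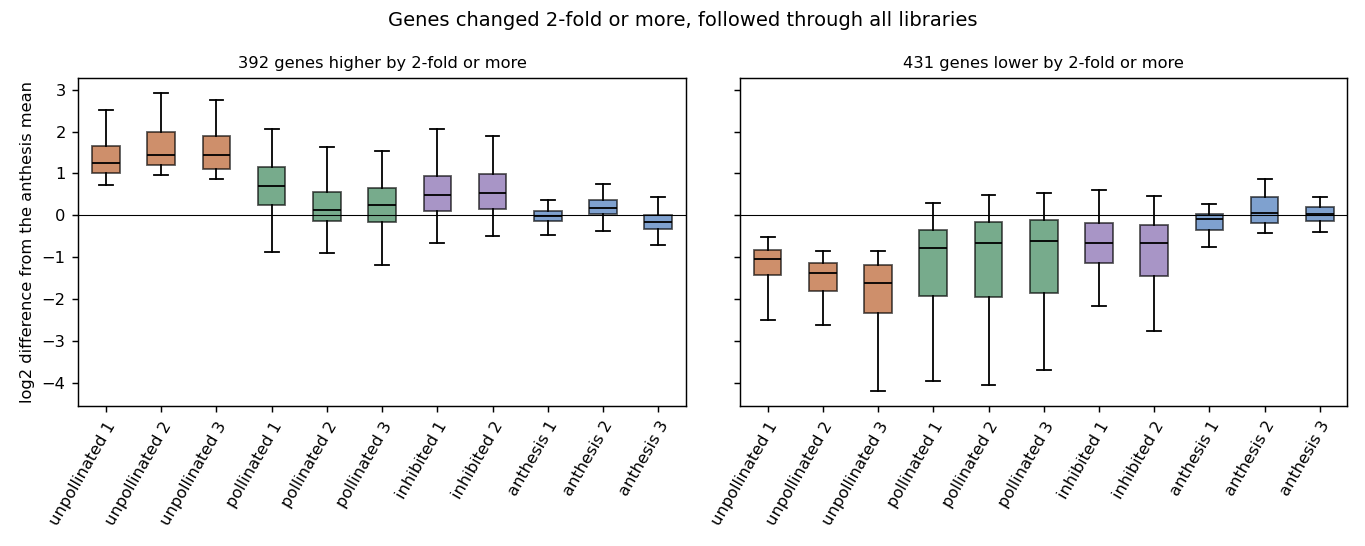
Log2 difference from the anthesis mean in each library for the 392 genes that rose (left) and the 431 that fell (right) by 2-fold or more in unpollinated ovaries; boxes run from the lower to the upper quartile of the genes, the line is the median and whiskers run from the 5th to the 95th percentile. The unpollinated medians lay at 1.26 to 1.44 on the left and at -1.61 to -1.04 on the right, and the pollinated boxes on the right were the widest.

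Changed genes were found under all 7 chromosome numbers that identifiers carry; another 123 genes tested have none. The digit after Csa in an identifier is, in the naming scheme of this annotation, the chromosome, and the files give no coordinates. The share of genes called higher ran from 17.1% for identifiers of chromosome 5 to 18.3% for chromosome 3, and the share called lower from 17.6% for chromosome 5 to 18.8% for chromosome 6. At 2-fold or more, the share higher ran from 1.77% for chromosome 6 to 2.70% for chromosome 2 and the share lower from 1.90% for chromosome 3 to 2.68% for chromosomes 5 and 6, against 2.1% and 2.31% over all genes tested. These shares were not tested against each other.

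Some genes with successive identifiers changed together. When all identifiers were put in number order, 3 runs of 4 neighbouring genes were called at 2-fold or more in a single direction, 2 of them higher and 1 lower. A further 8 runs held 3 genes (4 higher and 4 lower), and pairs numbered 14 higher and 21 lower. The number of such runs was not set against a chance level, and neighbouring genes that are near-identical copies may share reads. The runs below were chosen after their values were seen. The run from Csa2G023940 to Csa2G027440, on chromosome 2 by its identifiers, rose by log2 fold changes of 1.98 to 2.65 (largest edgeR adjusted p = 0.00228). Its members differed widely in level. Csa2G024440 had 1680, 2056 and 2235 CPM in unpollinated replicates 1 to 3, against 342, 450 and 296 CPM in anthesis replicates 1 to 3. Its neighbour Csa2G023940 had 747, 1066 and 1102 CPM, against 229, 293 and 216 CPM at anthesis. The other 2 members of the run stood at means of 3.36 and 5.72 CPM in unpollinated ovaries, against 0.531 and 1.45 CPM at anthesis. In each of these 4 genes the unpollinated ovaries lay above all anthesis ovaries, as in 382 of the 392 genes called 2-fold or more higher (97.4%). With pollen, Csa2G024440 was at 766, 471 and 243 CPM in pollinated replicates 1 to 3 and at 479.5 and 449.8 CPM in the inhibited ones, below every unpollinated ovary. Csa2G023940 was at 407, 237 and 165 CPM in pollinated replicates 1 to 3 and at 263 and 278 CPM in the inhibited ones.

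The run from Csa7G046660 to Csa7G046690 also rose, by log2 fold changes of 1.01 to 2.27 (largest edgeR adjusted p = 0.0229). Its most abundant member, Csa7G046690, had 115, 139 and 103 CPM in unpollinated replicates 1 to 3, against 54.5, 63.5 and 47.3 CPM in anthesis replicates 1 to 3, with no overlap. In pollinated replicates 1 to 3 this gene had 92.0, 54.8 and 58.7 CPM, and in the inhibited ones 43.6 and 44.8 CPM. The first member, Csa7G046660, averaged 10.3 ± 1.35 CPM in unpollinated and 5.10 ± 1.10 CPM in anthesis ovaries (SD, n = 3 each), and its pollinated ovaries had 14.8, 11.6 and 10.4 CPM, overlapping the 8.87 to 11.6 CPM of the unpollinated ones. The lower run, from Csa4G296910 to Csa4G297430, had log2 fold changes of -1.95 to -1.38 (largest edgeR adjusted p = 0.02). All of its members were of low level, with means of 0.466 to 2.57 CPM in unpollinated ovaries and 1.37 to 6.65 CPM at anthesis. Its members were low with pollen too. In pollinated replicates 1 to 3, Csa4G296910 had 2.31, 3.23 and 1.85 CPM and Csa4G297410 had 0.161, 0.207 and 0.308 CPM. There Csa4G297420 had 0.322, 0.662 and 0.424 CPM and Csa4G297430 had 1.23, 1.24 and 0.616 CPM.

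**Figure D5:**
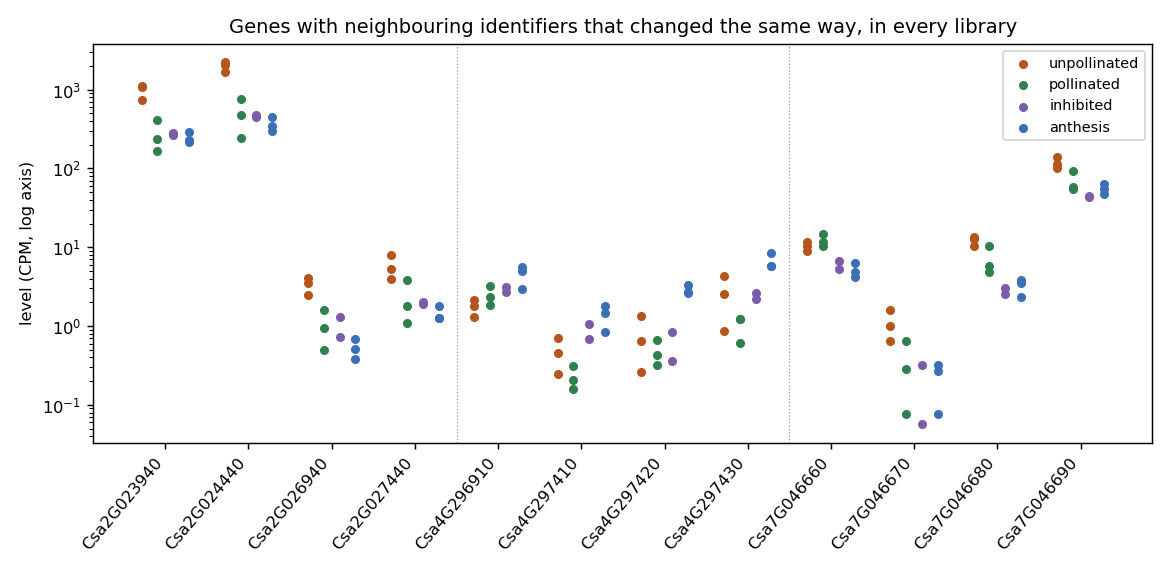
Level (CPM, log axis) in each library of the 12 genes in the 3 runs of 4 neighbouring identifiers, with dotted lines between runs; each point is 1 ovary, coloured by group. In the first run, with means of 3.36 to 1990 CPM in unpollinated ovaries, the unpollinated points stand above the anthesis points in all 4 genes. This held for 97.4% of all genes called 2-fold or more higher.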

How the data were processed

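RNA-seq libraries of 11 single cucumber ovaries were used. The authors deposited raw read counts per gene, which were used here; a table of normalized values was not used. Tools listed in the submitters' processing notes are HTSeq 0.6.1p1, STAR 2.5.0a and DESeq2, with no role for each. The build, the annotation and the strand setting of the counting were not given in the sources used here, so reads of overlapping genes and of near-identical copies may be shared. The 5 lines that name no gene held 10.8 to 24.8% of a library's reads and were left out.

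Genes were filtered with filterByExpr by group (18679 of 23248 kept). edgeR 4.0.16 (R 4.3.3, TMM, glmQLFit, glmQLFTest) was fitted to all 11 libraries with a mean per group, so that the groups share the estimate of spread (common biological coefficient of variation 12.3%). P-values were adjusted over all genes tested. A standard error is the log2 fold change divided by the square root of F. Log2 CPM used a prior count of 2. No replicate pair was a duplicate: chi-square per gene was 10.05 or more (genes with 20 reads or more in the pair).

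Replicate numbers only name libraries. The members, rules and tests were chosen with earlier results of these data known. Genes were named by rule: in each direction the 2 genes of largest log2 fold change that were called in the 11-library fit and in each of 6 fits without 1 unpollinated or anthesis library, and that had groups that do not overlap in CPM, a higher group of at least 5 CPM and the same sign with the second index as a term. Gene lists could not be used without names. Alternatives were DESeq2 1.42.0, DESeq2 size factors, no filter, other sets of libraries, index and unassigned share as terms, and glmTreat. The pipeline was tested on simulated counts. Limits from 3 reads cover counting error only.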

Additional observations from a re-analysis of the deposited data

Results flagged for a closer look

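For 3 of the 4 genes named by rule, the change since anthesis in unpollinated ovaries differed from that in pollinated ovaries. The test is the comparison of unpollinated with pollinated ovaries, since both changes use the same anthesis libraries. That comparison called 30.3% of all genes. The 4 genes were chosen for large changes in these same unpollinated libraries, which favours such a difference. The log2 difference was 6.74 for Csa3G736970, 2.10 for Csa6G498410 and -4.48 for Csa2G379350 (edgeR adjusted p = 6.7e-05, 0.00474 and 1.36e-05), with every unpollinated ovary outside the range of the pollinated ones. That of Csa6G498410 was no longer called with the second index as a term (edgeR adjusted p = 0.217). Inhibited ovaries, which had also received pollen, were higher than anthesis for Csa3G736970 (log2 fold change 3.52; adjusted p = 0.00822, edgeR), the direction found in unpollinated ovaries, and unpollinated ovaries were not tested against inhibited ones. Both inhibited libraries differed from all anthesis libraries in the second index, which cannot be told apart from the treatment here.

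Reads assigned to no gene, which took no part in the comparisons, made up 16.8% of unpollinated replicate 3, above all anthesis libraries (10.8 to 13.3%). Within them, reads outside any annotated gene were 9.26% of that library and reads with more than 1 alignment 6.87%, against at most 7.22 and 5.33% at anthesis.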

How the results depend on the processing

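No paired analysis was possible because the labels give no replicate numbers shared across groups. Of the 15 alternatives, those built on the second index moved the counts most. With the index as a term 825 genes were higher and 753 lower (1578 called; 205 and 119 at 2-fold or more), and among libraries with the index of the anthesis libraries, where unpollinated ovaries have 1 library assumed to vary like the others, 820 were higher and 701 lower (1521 called; 205 and 126 at 2-fold or more). Against a fold of 1.2 with glmTreat, 1367 were higher and 1499 lower (2866 called). The other 12 alternatives gave 4564 to 6891 calls, within 1.5 times the 6672 reported: leaving out 1 library gave 4564 to 6642, DESeq2 6891 and the 6 libraries alone 6845. Medians of the 2-fold higher genes with 1 unpollinated library left out ran from 1.12 to 1.34 in replicate 1 and from 1.32 to 1.47 in replicate 3. Of the abundant genes, Csa4G167980 had log2 fold changes of 0.71 and 0.72 in the 2 fits built on the index, which differed on its call. Csa4G243390 turned to -0.018 with the share of unassigned reads in the model and to -0.49 without the libraries above 15% unassigned, and leaving out 1 library gave -0.49 (unpollinated replicate 3) to 1.55. Csa6G239680 turned to -0.32 without the libraries above 15%, and leaving out 1 library gave -0.33 (unpollinated replicate 3) to 1.58. The 6-library fit holds no pollinated ovaries and gave no value for that comparison; leaving out each pollinated library was added after seeing the data and changed no call there. The causes were not tested.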
